A study of Mus musculus with 22 samples.

Results

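The genes described here are those through which a cell makes, senses, takes up, stores and exports cholesterol, measured in the epididymal fat of mice kept in normal or low oxygen. The list named 31 genes. A gene was tested where its probe stood well above background in the Cy5 channel, which carries the mouse's own RNA, on at least 10 of the 22 arrays, and 30 of the 31 met this among 16578 genes tested in all. The exception was Cyp51, the lanosterol demethylase, which was above background on 7 arrays and is described only by its promoter. The members fall into 6 roles: 6 enzymes of the mevalonate pathway, 3 that carry squalene to lanosterol, 7 tested enzymes that act after lanosterol, 4 genes of sterol sensing, 4 of uptake and transfer, and 6 of efflux, storage and the liver X receptors. The list was chosen with earlier results of these data known.

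Cells build cholesterol from acetyl-CoA through mevalonate, squalene and lanosterol. When sterols run low in the endoplasmic reticulum, SCAP escorts the transcription factor SREBP-2, encoded by Srebf2, to the Golgi for cleavage, and the INSIG proteins hold SCAP back when sterols are plentiful. When sterols are in excess, oxysterols activate the liver X receptors, encoded by Nr1h3 and Nr1h2, which turn on the exporters Abca1 and Abcg1, and the adipocyte itself is a large store of free cholesterol in the lipid droplet.

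All animals were male C57BL/6JOlaHsd mice, an inbred strain, that arrived at 10 weeks of age, ate a purified diet with 10% of its energy as fat for 3 weeks and then one with 40% for 6 weeks, and were fasted before the exposure. The 12 normoxia mice stayed at 20.9% oxygen and the 10 hypoxia mice were set at 12% oxygen for 6 h in a calorimetry system. One treatment label also contrasts a low-fat with a high-fat diet but assigns neither to any animal, and diet entered no fit. Each mouse's RNA (Cy5) was hybridised against 1 pool of all samples (Cy3) with no dye swap, and every value below is a log2 ratio of mouse over pool unless another scale is named.

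The arrays lay on 6 slides, of which 5 carried 2 mice of each group and slide 2 carried normoxia replicates 9 and 10. On the 4 arrays of slide 1 between 15.6% and 18.9% of spots were well above background, against 29.8% to 76.8% on the other arrays. All 12 adipocyte markers listed were tested, and so were 4 of 6 sperm markers, while none of 6 epididymis markers reached 10 arrays. In hypoxia, where 50.4% of all genes were higher, so were 17 of 19 tested macrophage markers (median difference 0.11), 8 of 8 mesothelial (0.17), 4 of 4 red cell (0.39), 9 of 12 adipocyte (0.04), 6 of 8 endothelial (0.03), 4 of 8 progenitor (0.02) and 0 of 4 sperm markers (-0.53), with none past the threshold. Their part in the members' differences was not tested. In bulk tissue, fewer cells of a type and less RNA per cell cannot be told apart.

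The promoters are shown first because the synthesis enzymes share a feature in them. In RefSeq's promoter table (build GRCm38.p6, 250 bases before to 50 bases after each gene's start), 24 of the 31 members had an entry. The letters CCAAT, which the factor NF-Y binds beside SREBP sites, were searched on both strands. They were found in all 14 synthesis enzymes with an entry, against 41.06% of 27025 genes in the table. With the window cut to the 250 bases before the start the count was again 14 of 14, and the share over all genes was 37.49%. Outside synthesis, CCAAT was in Srebf2, Insig1, Insig2, Npc2 and Soat1 and was not in the windows of Scap, Abca1, Nr1h3, Nr1h2 or Apoe. The letters TCACNCCAC, a form of the sterol regulatory element, were found in Hmgcs1 alone of the 24, and in 1.44% of all genes. The E-box CACGTG was in Hsd17b7, Sc5d, Dhcr7, Insig1, Scap and Abca1, and in 8.09% of all genes. The core of the hypoxia response element, ACGTG, lies inside CACGTG and was found in the same 6 members, against 21.78% of all genes. The direct repeat of AGGTCA with 4 bases between the copies, a form bound by liver X receptors, was in no member with an entry and in 0.01% of all genes. Only 4 of 27025 genes held this exact form, so its absence does not set the members apart, and looser forms of the repeat were not searched. A match of letters is a description of the sequence and not a bound site.

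Printed here are the 250 bases before the start of 5 members on which the results turn, 5′ to 3′ on the gene's own strand, with the matches in capitals (ATTGG is CCAAT on the other strand). Hmgcs1 (chr13:119690101-119690350, plus strand) is shown for its sterol regulatory element, whose first base lies at position -137, and 3 CCAAT letters. Tm7sf2 (chr19:6067851-6068100, minus strand), Ebp (chrX:8193513-8193762, minus strand) and Insig2 (chr1:121332590-121332839, minus strand) carry CCAAT 1, 2 and 3 times. Abca1 (chr4:53159896-53160145, minus strand) is shown for contrast: it has the E-box and no CCAAT.
Hmgcs1: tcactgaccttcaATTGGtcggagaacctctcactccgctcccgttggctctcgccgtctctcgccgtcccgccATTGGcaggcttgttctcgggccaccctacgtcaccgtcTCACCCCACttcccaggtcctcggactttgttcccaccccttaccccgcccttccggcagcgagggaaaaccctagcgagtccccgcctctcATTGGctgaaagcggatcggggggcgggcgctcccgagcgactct
Tm7sf2: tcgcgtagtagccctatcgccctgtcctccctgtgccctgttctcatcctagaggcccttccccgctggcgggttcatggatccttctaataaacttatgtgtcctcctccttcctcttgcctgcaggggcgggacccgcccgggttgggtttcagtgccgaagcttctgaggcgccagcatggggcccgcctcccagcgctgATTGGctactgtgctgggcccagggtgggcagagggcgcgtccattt
Ebp: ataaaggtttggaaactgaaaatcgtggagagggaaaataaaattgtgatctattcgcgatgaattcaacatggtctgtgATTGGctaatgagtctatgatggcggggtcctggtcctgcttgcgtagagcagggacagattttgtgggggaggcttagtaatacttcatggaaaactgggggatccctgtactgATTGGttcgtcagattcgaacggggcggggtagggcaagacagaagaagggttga
Insig2: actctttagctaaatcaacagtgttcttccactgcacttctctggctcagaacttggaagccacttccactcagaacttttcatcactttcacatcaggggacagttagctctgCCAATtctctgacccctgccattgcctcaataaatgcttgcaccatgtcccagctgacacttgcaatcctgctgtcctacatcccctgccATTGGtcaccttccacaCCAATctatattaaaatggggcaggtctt
Abca1: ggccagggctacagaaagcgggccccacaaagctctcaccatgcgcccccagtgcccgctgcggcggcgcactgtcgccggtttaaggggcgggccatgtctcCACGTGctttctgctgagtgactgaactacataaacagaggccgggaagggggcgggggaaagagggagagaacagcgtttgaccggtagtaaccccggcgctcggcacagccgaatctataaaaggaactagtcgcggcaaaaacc

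None of the 30 members passed the test between hypoxia and normoxia. No gene of the 16578 passed an adjusted p of 0.05 in limma (Benjamini-Hochberg), a share of 0%, and the smallest adjusted p of a member was 0.952. At an unadjusted p under 0.05 there were 879 genes (5.3%) and 0 members. Of the members 13 were higher and 17 lower, where 50.4% of all genes were higher, and the members' median difference was -0.002 against 0.001 over all genes. For comparison, 12 tested targets of the hypoxia-inducible factors in the same fit had a median difference of 0.23, with 11 higher and 5 at an unadjusted p under 0.05. The values of the groups overlapped in all 30 members. Overlap was not counted over all genes, so this does not set the members apart from other genes.

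The 95% intervals of the members' differences reached from -0.44 at the lowest to 0.52 at the highest, with a half-width of 0.15 to 0.37 and a median of 0.23, so that 28 of the 30 lay within 0.5 of 0 on the log2 scale. The exceptions were Abcg1 and Apoe, whose upper bounds were 0.51 and 0.52.

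**Figure D1:**
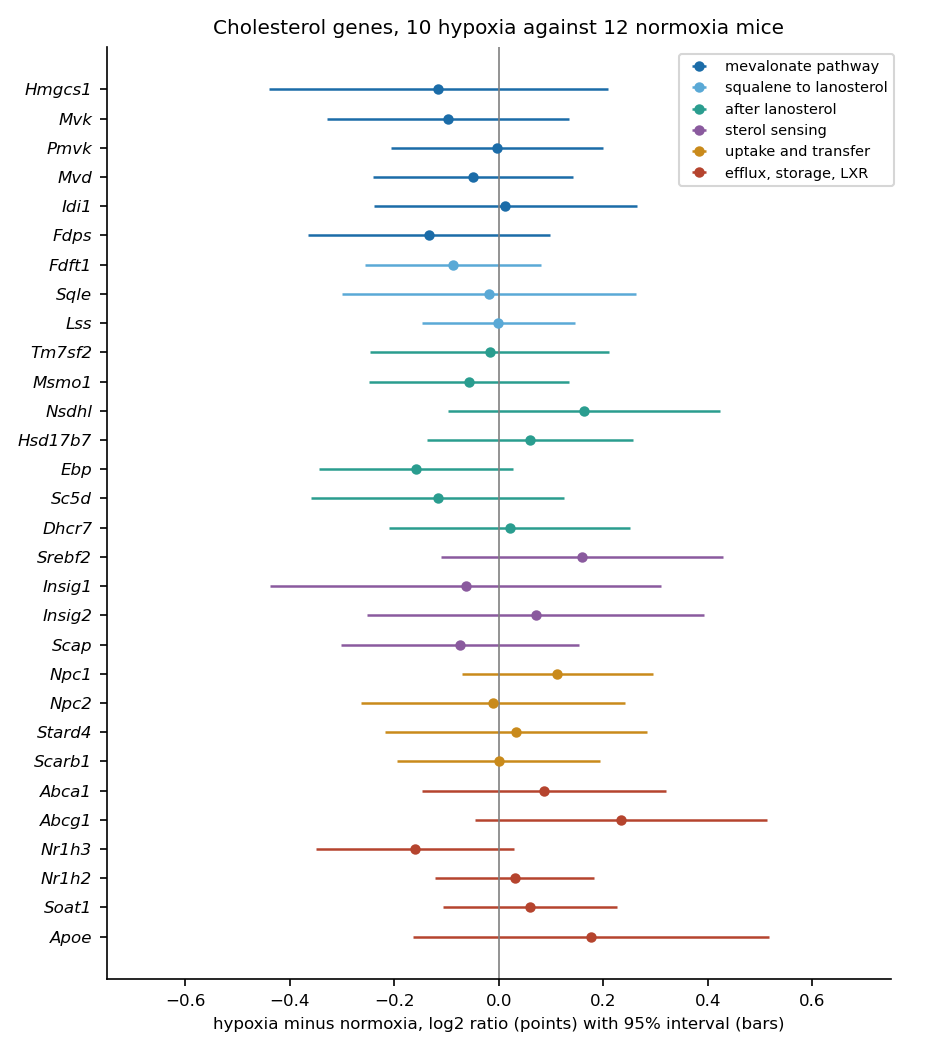
Difference of hypoxia (10 mice) minus normoxia (12 mice) in log2 ratio on the x axis for the 30 tested members, with 95% intervals of the limma fit as bars and colours for the 6 roles. All intervals include 0, from Nr1h3 at -0.16 to Abcg1 at 0.23.

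In the mevalonate pathway 5 of 6 enzymes were lower and 1 higher, with a median of -0.07, all inside their error. Hmgcs1, the cytosolic HMG-CoA synthase, ran from -0.27 over a median of 0.30 to 1.14 in normoxia and from -0.53 over 0.35 to 0.68 in hypoxia. Its difference was -0.12 (95% interval -0.44 to 0.21, unadjusted p = 0.469, adjusted p = 0.991 in limma). The highest mouse was normoxia replicate 3 and the lowest hypoxia replicate 7, both on slide 1, and the groups overlapped over most of their range. Fdps, which makes farnesyl diphosphate, gave -0.13 (interval -0.36 to 0.10), and Idi1, the isopentenyl diphosphate isomerase, gave 0.01 (-0.24 to 0.26). The kinase Mvk gave -0.10, the decarboxylase Mvd -0.05 and the kinase Pmvk -0.0032. A second tested probe of Mvk gave -0.16 (unadjusted p = 0.0501 in limma), and a second of Pmvk gave -0.07. The 3 enzymes from squalene to lanosterol were all at or below 0: Fdft1, squalene synthase, at -0.09 and Sqle, squalene epoxidase, at -0.02. Lss, lanosterol synthase, had the narrowest interval of all members, -0.15 to 0.15. Its probe was dim, with a median Cy5 signal of 75.6, and stood above background on 15 arrays. The part of low signal in the narrow interval was not tested.

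Among the 7 tested enzymes after lanosterol 3 were higher and 4 lower. Ebp, the sterol isomerase, had the smallest unadjusted p of all members when each was read by its brightest probe. Its values ran from -0.56 over -0.19 to 0.21 in normoxia and from -0.81 over -0.32 to -0.15 in hypoxia. The difference was -0.16 (interval -0.34 to 0.03, unadjusted p = 0.0914, adjusted p = 0.952 in limma), with 8 of 10 hypoxia mice below the normoxia mean. Nsdhl, a sterol dehydrogenase, ran from -0.76 over -0.58 to 0.15 in normoxia and from -0.84 over -0.18 to 0.27 in hypoxia. Its difference was 0.16 (interval -0.10 to 0.42), and the lowest mouse of all was in the hypoxia group although 8 of its 10 mice lay above the normoxia mean. Of the other enzymes Sc5d gave -0.12, Msmo1 -0.06, Tm7sf2 -0.02, Dhcr7 0.02 and Hsd17b7, a keto-sterol reductase, 0.06.

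The sterol sensors varied widely between mice, and their groups overlapped. Insig1, which SREBP-2 itself induces, ran from -0.86 over -0.31 to 0.90 in normoxia and from -1.05 over -0.23 to 0.12 in hypoxia, a difference of -0.06 (interval -0.44 to 0.31). Insig2, its paralog that is not driven by SREBP-2 in the same way, ran from -0.73 over 0.01 to 0.46 and from -0.65 over -0.04 to 0.76, a difference of 0.07 (interval -0.25 to 0.39). A second tested Insig2 probe gave -0.04. Srebf2 gave 0.16 (interval -0.11 to 0.43) and Scap -0.07 (-0.30 to 0.15). In uptake and transfer, Npc1 and Npc2, which pass cholesterol out of the lysosome, gave 0.11 and -0.01. Stard4, a soluble sterol carrier, gave 0.03, and Scarb1, the HDL receptor, gave less than 0.01 in size with an interval of -0.19 to 0.19.

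In efflux, storage and liver X receptors 5 of 6 genes were higher, with a median of 0.07, and none passed. Abcg1, the exporter to HDL, ran from -1.14 over -0.41 to -0.22 in normoxia and from -0.94 over -0.25 to 0.51 in hypoxia. That is the largest difference of the list, 0.23 (interval -0.05 to 0.51, unadjusted p = 0.0985, adjusted p = 0.957 in limma), with 8 of 10 hypoxia mice above the normoxia mean and 4 of 5 slides in the same direction. Its highest and its second lowest mouse were both in the hypoxia group. Abca1, the exporter to lipid-poor apolipoprotein A-I, ran from -0.33 over 0.12 to 0.74 and from -0.16 over 0.14 to 0.56, a difference of 0.09 (interval -0.15 to 0.32).

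Nr1h3, liver X receptor alpha, ran from -0.70 over -0.11 to 0.02 in normoxia and from -0.65 over -0.39 to -0.03 in hypoxia. Its difference was -0.16 (interval -0.35 to 0.03, unadjusted p = 0.0942, adjusted p = 0.954 in limma), opposite in sign to those of its target genes Abca1 and Abcg1. A second tested probe of Nr1h3 gave -0.09. Nr1h2, liver X receptor beta, gave 0.03 and Soat1, which esterifies cholesterol for storage, gave 0.06. Apoe, the apolipoprotein that carries exported cholesterol, ran from -0.47 over 0.16 to 0.89 in normoxia and from 0.07 over 0.19 to 1.70 in hypoxia, a difference of 0.18 (interval -0.16 to 0.52). Without hypoxia replicate 7, which holds the value 1.70, it was 0.03.

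**Figure D2:**
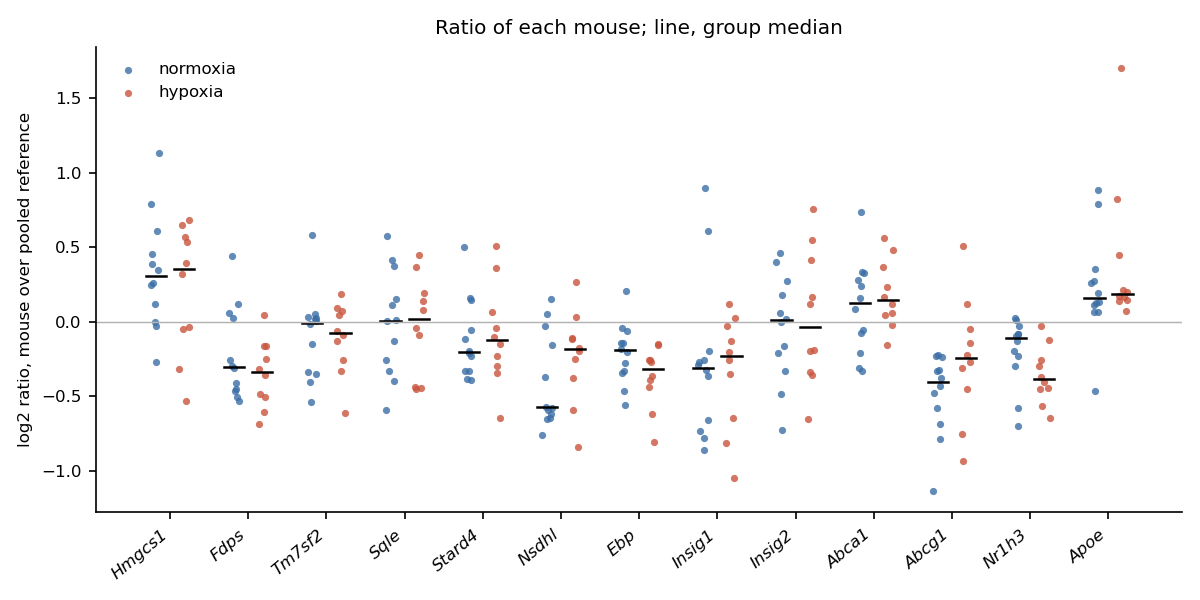
Log2 ratio of each mouse over the pooled reference on the y axis for 13 members, with normoxia (12 mice) and hypoxia (10 mice) side by side and a line at each group's median. The groups overlap in every gene shown, and single mice such as hypoxia replicate 7 in Apoe (1.70) and normoxia replicate 3 in Hmgcs1 (1.14) lie apart.

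Other genes of sterol handling were counted in the same fit. Of 54 listed, 46 were tested, 28 were higher and 18 lower with a median difference of 0.02, and none passed. At an unadjusted p under 0.05 there was 1, Abca7, a lipid exporter related to Abca1, at -0.22 (p = 0.0331, adjusted p = 0.892 in limma). The next were Rnf139, a ubiquitin ligase of the endoplasmic reticulum, at 0.24 (p = 0.0555 in limma), Lbr, which shares the sterol reductase activity of Tm7sf2, at 0.15, and the caveolin Cav2 at 0.16. In fatty acid synthesis 0 of 22 tested genes passed, with a median of -0.06.

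Many members varied widely between mice. Within groups the SD of the log2 ratio ran from 0.14 for Lss to 0.47 for Insig1 with a median of 0.27. It was above that of the median tested gene in 19 of 30 members, and above the 80th percentile of tested genes in 11. Insig1 stood at the 96.3rd percentile, Apoe (SD 0.43) at the 94.9th, Hmgcs1 (0.40) at the 93.9th and Insig2 (0.40) at the 93.8th. The Apoe probe is printed 10 times on the array, and the SD between spots of 1 array had a median of 0.17 and a highest value of 0.35. Where 2 probes of a member were tested, their r over mice was 0.76 for Insig2, 0.53 for Tm7sf2, 0.47 for Nr1h3, 0.43 for Mvk, 0.17 for Scarb1 and 0.01 for Pmvk, so that the values of the last 2 depend on the probe.

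Whether the members rose and fell together from mouse to mouse was examined on the deviations from the group means. Over the 120 pairs of synthesis enzymes the median r was 0.20 and 65.8% of pairs were positive, against a median of 0.02 and 52.7% over all pairs of tested genes. Within slides the median was 0.13. Over all 435 pairs of members it was 0.08, and over the 96 pairs of a synthesis enzyme with a gene of efflux, storage or liver X receptors it was 0.03. The spread was wide: among synthesis enzymes 90% of pairs lay between -0.34 and 0.62, while 90% of all gene pairs lay between -0.46 and 0.51. These pairs share mice and slides and are given as a description.

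**Figure D3:**
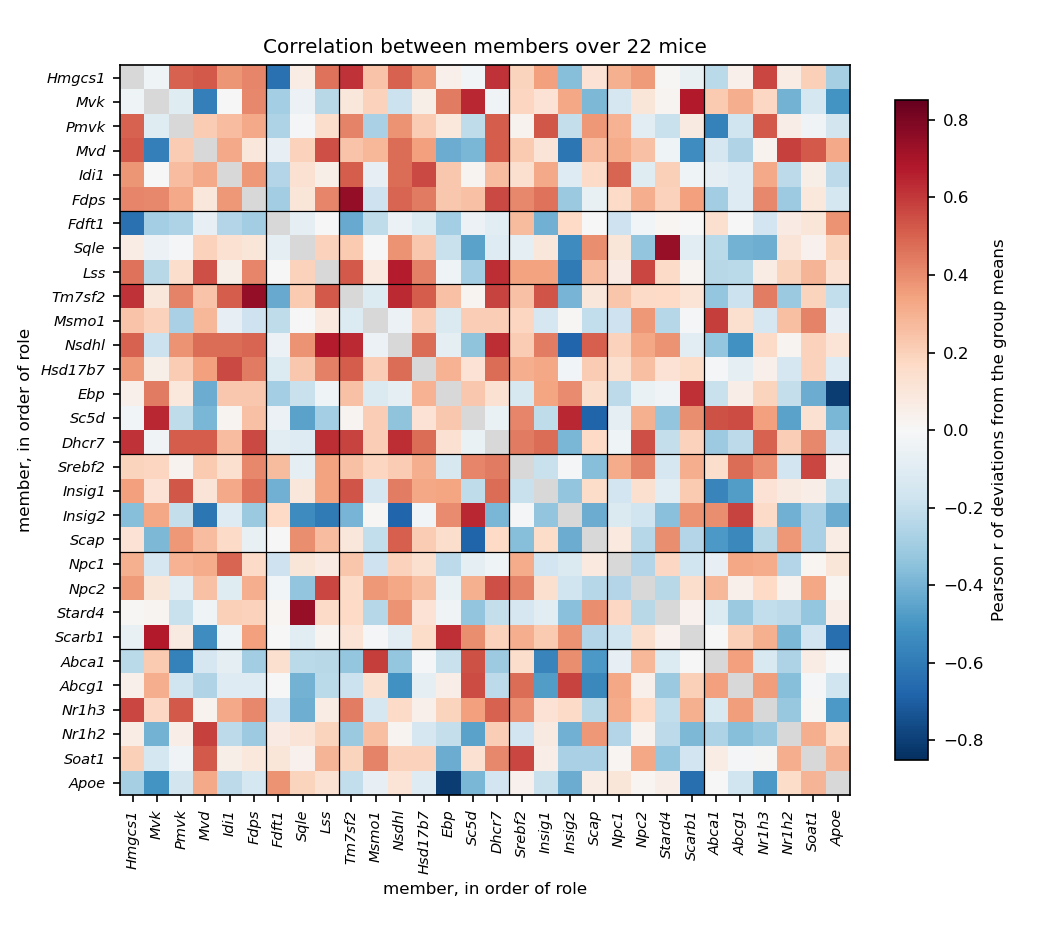
Pearson r of the deviations from the group means over 22 mice for each pair of the 30 tested members, in order of role with lines between roles (red positive, blue negative). The block of synthesis enzymes at the upper left is mostly positive (79 of 120 pairs), the line of Fdft1 is mostly blue, and Fdps with Tm7sf2 (0.74) is the highest of its pairs.

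Each member in turn was then used as a covariate for all 16577 other genes in limma, with group as a second term and p adjusted over those genes for each member separately. Of the 30 covariates 7 called no gene, the median was 70.5 genes called, and the most was 2383. Of the 435 member pairs 10 passed with at least 1 of the pair as covariate (2.3%), 6 of them positive and 4 negative, and 3 passed with either gene as covariate. Among synthesis enzymes 2 of 120 pairs passed.

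Hmgcs1 was the covariate chosen for synthesis. It called 3 genes (0.0181%), all positive, and 0 of 29 members. Of the 29 members 22 had a positive slope, and so did 25 of 46 other tested sterol genes. The share of positive slopes over all genes was not counted, so the 22 are a description. The members nearest to it were Dhcr7, the last reductase of the pathway (r = 0.61, permutation p = 0.00326, rho = 0.66, permutation p = 0.00132), and Tm7sf2, the sterol C14 reductase (r = 0.61, p = 0.00299, rho = 0.67, p = 0.0012 by permutation). After adjustment over 16480 genes the permutation p for r was 0.251 and 0.242, so neither held, and r was 0.64 and 0.74 without the 2 mice farthest on Hmgcs1. Fdft1 ran the other way at r = -0.63 (adjusted permutation p = 0.231), and Nr1h3 reached 0.57. Of genes outside the list the most similar by r were Mpp1 (0.81), 4931406C07Rik (0.79), Timm10 (0.79), Hsd17b4 (0.78), Dtx2 (0.77), Mest (0.77), Clic4 (0.76) and Mmd (0.76). Mest, a gene known for varying with fat mass expansion between mice, and 4931406C07Rik were called in limma (adjusted p = 0.0364 each), and their adjusted permutation p was 0.118 and 0.0942. Leaving out 1 mouse at a time gave 0 to 26 genes and 0 members. The count was 0 without any 1 of normoxia replicates 1, 10 and 12 and hypoxia replicates 1, 3, 6, 8 and 9, and 26 without hypoxia replicate 7.

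Abca1 was the covariate chosen for efflux. It called 744 genes (4.49%), of which 544 were positive and 200 negative, and 0 of 29 members. The nearest members were Msmo1, the sterol C4 methyl oxidase (r = 0.59, rho = 0.53, adjusted permutation p = 0.0558), Pmvk, phosphomevalonate kinase (r = -0.57, rho = -0.57, adjusted p = 0.0859 by permutation), and Insig1 (r = -0.56, rho = -0.50, adjusted p = 0.105 by permutation). Abcg1, the other liver X receptor target, reached r = 0.35 (permutation p = 0.0973), which was not distinguishable from 0. Among other sterol genes Cav1, the main caveolin of fat, was negative with Abca1 at r = -0.71 (adjusted p = 0.0198 in limma).

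The genes most similar to Abca1 were Slc25a47 (r = 0.90), Srp68 (0.86), Mapk9 (0.85), Zc3h3 (0.83), Faap20 (0.83), Rfwd3 (0.83), Lrrc47 (0.82) and Ggt5 (0.82). Slc25a47, a mitochondrial carrier, had a rho of 0.90. Its permutation p was 1e-05 for both measures, the smallest that 100000 resamples can give. Adjusted over all genes the permutation p was 0.0122 for r and 0.0137 for rho. Its r was 0.84 without the 2 mice farthest on Abca1 and 0.90 within slides. The count with Abca1 turned on single mice: it was 0 genes without normoxia replicate 9, which has the highest Slc25a47 value, 221, 263 and 367 without hypoxia replicates 8, 6 and 1, and 1224 without normoxia replicate 10. With Feature Extraction's own log ratio it was 0.

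Sqle rose with Stard4 from mouse to mouse. Sqle ran from -0.59 over 0.01 to 0.57 in normoxia and from -0.45 over 0.02 to 0.45 in hypoxia, and Stard4 from -0.39 over -0.20 to 0.50 and from -0.65 over -0.12 to 0.51. Normoxia replicate 2 and hypoxia replicate 10 were the 2 highest mice in both genes. Their r was 0.74 (permutation p = 7e-05) and rho 0.63 (permutation p = 0.00279), with 0.73 without the 2 mice farthest on Sqle and 0.78 within slides. Adjusted over all genes with Sqle as covariate, the permutation p was 0.00978 for r and 0.103 for rho. With Stard4 as covariate it was 0.0137 and 0.153, so r passed and rho did not. With Sqle as covariate 483 genes were called in limma (2.91%), and Stard4 was the only one of 29 members among them, with a slope of 0.65 and an adjusted p of 0.00407. Stard4 as covariate called 469 genes (2.83%), and Sqle was again the only member. The slope of Stard4 on Sqle no longer passed with Feature Extraction's own log ratio (0.30, adjusted p = 0.354 in limma) or without 3 arrays with a bright reference channel (0.50, adjusted p = 0.0853 in limma).

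Several of the 8 genes most similar to Sqle are known from sperm and cilia. The 8 were Spaca9, Morn5, Spef1l, Enah, Tekt4, 1700016K19Rik, Fam166c and Dnah7b, of which Spaca9 is named for the sperm acrosome, Tekt4 is a tektin of flagella and Dnah7b an axonemal dynein, while Enah is an actin regulator found in many cells. The genes most similar to Stard4 included Dnah7b too, with Ak8 and Cetn4, both known from cilia, and Esr1, the estrogen receptor. All 4 tested sperm markers were called with Sqle, each positive (474 genes, 2.86%, were positive), among them the protamines Prm2 (r = 0.71, permutation p = 0.00031) and Prm1 (r = 0.67, permutation p = 0.00069). Adjusted over all genes these were 0.021 and 0.0336 by permutation, and Tnp1 (r = 0.65) stood at 0.0706. Of 8 mesothelial markers 2 were called, the keratins Krt8 (r = 0.72) and Krt18 (r = 0.70), which other epithelia hold too, while Krt19 stood at 0.47 and the other 5 ran from -0.24 to -0.30. Of 12 targets of the hypoxia-inducible factors 3 were called, all positive: the lactate carrier Slc16a3 (r = 0.65), Ankrd37 (0.64) and the glucose carrier Slc2a1 (0.61). The 12 had a median r of only 0.07 with Sqle and 8 positive slopes, and the lowest r was -0.30 for Bnip3. Of 12 adipocyte markers 1 was called, the regulator Pparg, which was negative (r = -0.69, adjusted p = 0.03 in limma). With slide as a fixed block 1 of the 4 sperm markers was called.

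Prm2 itself ran from -3.35 to 2.77 in normoxia and from -3.19 to 0.55 in hypoxia, a span far wider than that of any cholesterol gene. Spaca9 lay at 0.47 or above in 6 mice, 3 of each group, and at -0.11 or below in the other 16, so no r over all mice is given for it. Within the 16 mice the r of Sqle was 0.78 with Spaca9, 0.61 with Prm2 and 0.28 with Stard4. The 16 were set apart after the values were seen, by the gene most similar to Sqle, which itself narrows the range of Sqle, so these values are a description and test nothing. The part of RNA from sperm or ciliated cells in the Sqle and Stard4 ratios was not tested. None of the 4 sperm markers was called with Hmgcs1 or Abca1, and with Abcg1 all 4 slopes were negative (r = -0.52 to -0.65).

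**Figure D4:**
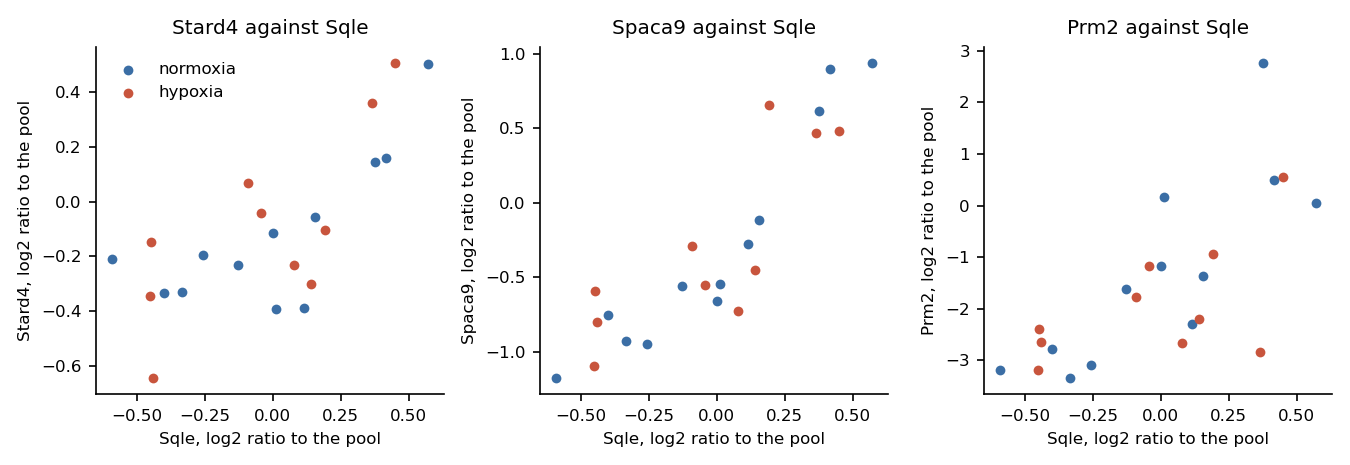
Log2 ratio of Stard4 (left), Spaca9 (middle) and Prm2 (right) on the y axes against that of Sqle on the x axes, 1 point a mouse, coloured by group. Spaca9 lies at 0.47 or above in 6 mice and at -0.11 or below in 16, and Prm2 spans -3.35 to 2.77.

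Ebp and Apoe ran in opposite directions. The 4 mice of slide 1 held the 4 highest Apoe ratios (0.79 to 1.70, against -0.47 to 0.45 on the other 18 arrays), so the correlation is given outside that slide. Over those 18 arrays r was -0.79 (permutation p = 0.00067) and rho -0.75 (permutation p = 0.0004), with -0.59 without the 2 mice farthest on Ebp and -0.61 without normoxia replicate 1, the highest in Ebp and lowest in Apoe. Within slides, over all mice, it was -0.65. The pair was taken up after the data were seen, and the permutation p over 18 arrays are not adjusted. Over 22 mice the permutation p adjusted over all genes was 0.0596 for r and 0.165 for rho with Ebp as covariate. With Apoe as covariate it was 0.00603 for r and 0.0549 for rho. In limma Apoe passed with Ebp as covariate (70 genes called, 0.422%, slope -1.66, adjusted p = 0.0157) and Ebp passed with Apoe as covariate (736 genes called, 4.44%). Without slide 1 the slope of Apoe on Ebp was -0.91 with an adjusted p of 0.431, and without hypoxia replicate 7 it was -1.23 with 0.193. Without normoxia replicate 3 the adjusted p in limma was 0.0545. With Feature Extraction's own log ratio the slope was -0.26 (adjusted p = 0.519 in limma). Slide 1 is also the slide with the lowest share of spots above background. Over 22 arrays Apoe was negatively correlated with that share (r = -0.65, rho = -0.49) and Ebp positively (r = 0.57, rho = 0.47), which by Pearson's r are the lowest and the highest values of the 30 members, given as a description. With the share taken out of both genes their r was -0.69.

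With Apoe as covariate 5 of 12 adipocyte markers were called in limma, all positive: Pnpla2, Cfd, Adipoq, Fabp4 and Cidec. Of all 16577 genes 601 were called positive. Of the 12 markers 8 had positive slopes, while Pparg (r = -0.35), Lep (-0.11), Lipe (-0.10) and Plin1 (-0.01) ran the other way. Outside slide 1, over 18 arrays, their r with Apoe was 0.78 for Cfd, 0.50 for Adipoq and 0.46 for Pnpla2, and it was -0.20 for Fabp4 and -0.12 for Cidec. Fabp4 and Cidec, which serve fatty acid transport and the lipid droplet, thus kept no positive r outside slide 1. All r outside slide 1 in this paragraph use deviations from the group means of all 22 mice, not from those of the 18 arrays. Vldlr, a receptor that binds ApoE particles, was negative (adjusted p = 0.0043 in limma), and so were Tmem97, a sterol-binding protein of the endoplasmic reticulum, and Adgre1, the 1 marker called of 19 tested for macrophages, of which 7 had positive slopes. Outside slide 1 the r of Apoe was -0.84 with Vldlr, -0.75 with Tmem97 and -0.49 with Adgre1. Ebp as covariate called 2 adipocyte markers, Adipoq and Pnpla2, both negative, at r = -0.45 and -0.34 outside slide 1.

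**Figure D5:**
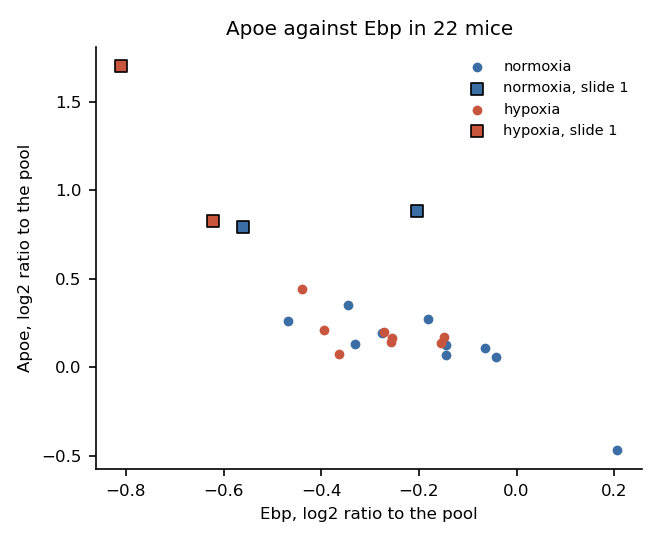
Log2 ratio of Apoe on the y axis against that of Ebp on the x axis in 22 mice, coloured by group, with the 4 arrays of slide 1 as outlined squares. The 4 squares hold the highest Apoe ratios, and the 18 other mice fall from upper left to lower right (r = -0.79).

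The remaining pairs centred on Insig2 and Sc5d, the lathosterol desaturase, which were in 7 of the 10 pairs past the threshold. Insig2 as covariate called 1820 genes (11%) and 4 of 29 members, and Sc5d called 2383 (14.4%) and 4 of 29, so that the members' share was near that of all genes. Insig2 rose with Sc5d (r = 0.64, rho = 0.65, permutation p = 0.00105 and 0.00168) and with Abcg1 (r = 0.58). It fell with Nsdhl (r = -0.68) and Mvd, the mevalonate decarboxylase (r = -0.62). Adjusted over all genes with Insig2 as covariate, the permutation p for r and rho was 0.0233 and 0.0295 for Sc5d. It was 0.0194 and 0.0378 for Nsdhl and 0.0332 and 0.0324 for Mvd. For Abcg1 it was 0.0665 and 0.177, so that pair did not pass by permutation. Sc5d also rose with Mvk, mevalonate kinase (r = 0.64), and with Abcg1 (0.55), and fell with Scap (-0.68). With Sc5d as covariate the adjusted permutation p for r and rho was 0.0267 and 0.058 for Mvk. It was 0.0462 and 0.0737 for Abcg1 and 0.0215 and 0.04 for Scap. The genes most similar to Insig2 were led by Pygl, the glycogen phosphorylase, at r = 0.91, and those to Sc5d by the zinc transporter Slc39a13 at 0.90.

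Sc5d itself ran from -0.61 over -0.06 to 0.57 in normoxia and from -0.47 over -0.25 to 0.26 in hypoxia, with normoxia replicate 5 lowest, as it was in Insig2, and the groups overlapping.

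The last pair was Fdps with Tm7sf2. Fdps ran from -0.53 over -0.30 to 0.44 in normoxia and from -0.68 over -0.34 to 0.05 in hypoxia, and Tm7sf2 from -0.54 over -0.01 to 0.58 and from -0.61 over -0.08 to 0.19. The pair correlated over 22 mice (r = 0.74, rho = 0.64). It passed with Tm7sf2 as covariate (71 genes called, 0.428%, adjusted p = 0.0332 in limma) and not with Fdps (0.118), and its adjusted permutation p was 0.0824. Normoxia replicate 1 was the highest mouse in both genes, with 0.44 in Fdps and 0.58 in Tm7sf2, and without it r was 0.62 over 21 mice.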

How the data were processed

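Scanner files of 22 mouse fat samples on Agilent 2-colour arrays came from Feature Extraction 10.7.3.1, as their headers record. Signals and local backgrounds are intensity values as deposited. The log10 ratios, deposited in the same files, were background-subtracted and dye-normalized by that software. A value table the authors deposited holds log2 levels with a median of 6.3 on every array and a column SD of 1.07 to 2.38. These are levels by their range, and no source here states how they were scaled.

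Background was corrected by normexp (offset 50), arrays by loess (limma 3.58.1, R 4.3.3), flagged spots were left out and spots of a probe averaged. A probe needed Cy5 well above background on 10 arrays, and a gene was its brightest tested probe by mean intensity. Log2 ratios were fitted on group, or on group and a member's ratio, in limma with Benjamini-Hochberg adjustment over all genes (threshold 0.05). Correlations use deviations from group means, with two-sided permutation within groups (100000 resamples) adjusted over 16480 genes. Samples of a group are biological replicates per the series text. Scripts were tested on simulated data.

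Members and lists were chosen with earlier results of these data known. Named genes are Hmgcs1, Abca1, members past the threshold, 4 members with the smallest p, 4 with the largest SD, and the 8 most similar genes per covariate. In other lists they are genes past the threshold and at most 4 with the smallest p. Some results that this rule names are not reported here. Hmgcs1 and Abca1 were the planned covariates, and Sqle and Abcg1 were run in their place as alternatives, for the counts called. All other members were taken as covariates after the data were seen, and the further results with Sqle were also taken up then. Names were updated through the RefSeq table of GRCm38.p6. Replicate numbers did not pair the mice: the correlation of same-numbered mice ran from -0.47 to 0.25. The alternatives are given in the closing section.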

Additional observations from a re-analysis of the deposited data

Results flagged for a closer look

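The Apoe ratio of hypoxia replicate 7 was 1.70 and lay far from the other 9 hypoxia mice, which ran from 0.07 to 0.83. It was the only value set apart by Dixon's test at the 95% level among the 30 members in the hypoxia group, where chance sets apart about 1.5. The same mouse had the lowest Ebp and Hmgcs1 ratios and lies on slide 1.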

How the results depend on the processing

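No member passed the threshold between hypoxia and normoxia under any of the 14 planned settings or without any 1 mouse. The members' median difference stayed between -0.07 and 0.03. The SD of the members' median between single mice was 0.09, which is not the error of a difference between groups. The median difference itself was not tested. The number of genes past the threshold between groups, 0 as reported, was 1 with Feature Extraction's log ratio, with scaling between arrays and with slide as a random block. It was 2 with slide as a fixed block, without slide 1 and with probes above background on all 22 arrays, 4 with array weights, and 0 to 3 without 1 mouse (1 without normoxia replicates 4 or 8 or hypoxia replicate 4, and 3 without hypoxia replicate 7). Restricted to probes above background on all 22 arrays, 5 of 15 tested members were higher. Without 1 mouse, 12 to 19 members were higher and the median was -0.03 to 0.04.

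The covariate counts were less steady. With Hmgcs1 the 3 genes became 0 to 26 without 1 mouse, 37 with Feature Extraction's log ratio, 35 with probes above background on all 22 arrays, 42 with scaling and 61 with array weights. They became 0 without the detection filter, without slide 1, without slide 2, without the 3 arrays with a bright reference and with the replicate block. With Abca1 the 744 genes became 463 without the detection filter, 346 with probes on all 22 arrays, 162 with scaling, 228 with array weights, 481 without slide 1 and 67 without slide 2. They became 0 with Feature Extraction's log ratio and with the replicate block, and 0 to 1224 without 1 mouse. The random slide block called 1 member with Abca1, and leaving out 1 mouse called 0 to 2. The sign of the group difference, inside its error throughout, changed in some settings for Insig1, Insig2, Sqle and Stard4. Sqle in place of Hmgcs1 called 483 genes and 1 member.

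The settings for Sqle, Stard4, Ebp and Apoe were chosen after seeing the data. The genes called with Sqle were 1638 with Feature Extraction's log ratio, 762 without the detection filter, 282 without the 3 arrays with a bright reference, 269 with the replicate block and 327 to 565 without 1 mouse. Sperm markers called with Sqle were 1 with slide as a fixed block and 4 without any 1 mouse. The slope of Stard4 on Sqle no longer passed with Feature Extraction's log ratio (0.30, adjusted p = 0.354 in limma) or without the 3 arrays with a bright reference (0.50, adjusted p = 0.0853 in limma), and was 0.57 to 0.74 without 1 mouse. The slope of Apoe on Ebp no longer passed with Feature Extraction's log ratio (-0.26), slide as a fixed block (-0.93), without slide 1 (-0.91) or with the replicate block (-1.52), and was -1.81 to -1.23 without 1 mouse.

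In the deposited value table, whose columns differ in spread, 12979 genes and 23 members were called with Hmgcs1, 13165 and 23 with Abca1, and 10715 with Sqle, among them 2 sperm markers, and the slope of Apoe on Ebp reversed to 0.98. The cause of each of these changes was not tested. The replicate block ran over replicate numbers 1 to 10, which did not pair the mice. Limits are the number of arrays, the dim slide 1 and members near background such as Soat1, which was above it on 10 arrays.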
